A study of Homo sapiens with 6 samples.

Results

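Histone genes were followed in PANC-1, an established cell line from a human pancreatic carcinoma, with or without maslinic acid (MA), a triterpene from olives. They were taken as every gene whose name begins with HIST1H to HIST4H, H1F, H2AF or H3F, which gave 121 of the 58825 genes in the table. By name and annotated gene type, 70 were HIST genes, 16 were replacement histone genes, 34 were pseudogenes and 1 was an antisense gene. RNA-seq of poly(A) RNA covered 3 untreated samples (PANC-1) and 3 exposed to MA at 40 μM during 24 h (MA PANC-1). The samples within a group were biological replicates of 1 cell line, so the p-values measure the spread between these cultures only.

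Histones are the proteins around which DNA is wound, with H2A, H2B, H3 and H4 forming the core and H1 binding the linker DNA. HIST genes lie in clusters, have no introns in their main form and are mostly read during S phase, and their mRNAs usually end in a short stem-loop in place of a poly(A) tail. Replacement histones are made throughout the cell cycle from single genes, and their mRNAs carry a poly(A) tail. Since the libraries were made from poly(A) RNA, the HIST values refer to the transcripts that passed that selection and not to the whole of the HIST mRNA. In bulk RNA, fewer cells reading a gene and less RNA per cell cannot be told apart.

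To show the ends that separate the classes, the stem-loop of 6 HIST genes and of H2AFX was read from the GENCODE 29 transcripts (GRCh38). The search on the sense strand took any run of 16 bases that began with GG and ended with CC, held between them any 2 bases, CTT, any base, T, any base, AG and any 2 bases, and whose first 6 bases paired fully with the last 6 around a loop of 4. Capitals mark the stem-loop, lower case marks 5 bases on each side, and T stands for U.
HIST1H2AC (chr6:26124669-26124684, plus strand): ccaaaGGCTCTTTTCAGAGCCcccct
HIST1H2BD (chr6:26158587-26158602, plus strand): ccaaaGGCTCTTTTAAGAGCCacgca
HIST2H2AA3 (chr1:149842223-149842238, minus strand): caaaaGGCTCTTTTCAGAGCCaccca
HIST2H2AA4 (chr1:149851574-149851589, plus strand): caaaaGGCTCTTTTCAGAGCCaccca
HIST1H4I (chr6:27139654-27139669, plus strand): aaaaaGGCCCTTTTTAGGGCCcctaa
HIST1H4J (chr6:27824459-27824474, plus strand): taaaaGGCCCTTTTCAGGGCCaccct
H2AFX (chr11:119094898-119094913, minus strand): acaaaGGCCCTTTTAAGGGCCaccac

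A stem-loop was found in 31 of the 70 HIST genes, in 5 different spellings, and in 1 of the 16 replacement genes, H2AFX. Among all 19684 coding genes 40 had one, a share of 0.203%, and 32 of those 40 were histone genes under the name rule. Of the 39 HIST genes without a match, 33 had annotated transcripts of coding length only, where the end of the mRNA is not in the model.

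In 16 HIST genes the same transcript ran on past the stem-loop to an AATAAA, the usual poly(A) signal, within 50 bases of its end. HIST1H2AC had 1114 bases after its stem-loop in the shorter of its matching transcripts. HIST2H2AA3 and HIST2H2AA4 had only 35 bases after it, with the signal beginning 22 bases from the end, and HIST1H2BD had 39 bases after it with the signal beginning 27 from the end. HIST1H2BK and HIST1H1C, the HIST genes with the highest FPKM, had 1 transcript of 381 and 642 bases, coding length only, so their level per length rests on a model that lacks any tail.

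The deposited table gave between 56978375 and 70275355 estimated counts per sample. These totals exceed the reads left after trimming that the study lists for each library, so 1 estimated count is not 1 sequenced fragment and the counts overstate the depth. With every count divided by 2, HIST genes higher with MA at an unadjusted p under 0.05 (edgeR) numbered 9 in place of the 8 given below, HIST2H2AA3 being past it at 0.0488. A gene was tested when its mean FPKM (fragments per kilobase of transcript, scaled to the depth of the library) over the 6 samples was at least 0.1, which kept 17774 genes. Of the histone genes 60 passed, made up of 37 HIST genes, 13 replacement genes and 10 pseudogenes. Another 27 had no count in any sample, and 34 had counts but stayed below 0.1. A gene that passed may have done so through 1 group, so the counts below refer to the tested genes and not to all members.

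The libraries were checked for their label before use. KRT8 lay between 140.8 and 225 FPKM, KRT18 between 277.7 and 338 and VIM between 520.6 and 754, as epithelial keratins and the vimentin known from this line. KRT19 was at most 0.109 FPKM and EPCAM at most 0.132, so these 2 epithelial markers were close to absent. KRT7 lay between 1.40 and 2.19 FPKM and CDH1, the epithelial cadherin, between 0.778 and 1.28. CDKN2A, known to be deleted in PANC-1, was at most 0.0612 FPKM. Among markers of leukocytes, endothelium, fibroblasts, acinar cells and hepatocytes, CD3E, PRSS1, CPA1 and ALB were at 0, and the most abundant, COL1A1, reached 5.96 FPKM. Their summed FPKM was 4.89, 3.998 and 3.25 with MA and 4.62, 4.12 and 6.61 without.

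MA PANC-1 replicate 2 stood apart from the other libraries. Its score on the first principal component, which held 26.4% of the variance, was -73.6, against -29.5 and 16.2 for the other MA samples and 18.1 to 44.9 for the untreated ones. Its TMM scaling factor was 0.9415, and the other 5 lay between 1.004 and 1.018. Values without this library are given for the HIST sums, counts and median, for HIST1H1C and for most listed factors named at the end.

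HIST mRNA was low in these libraries, and the replacement genes supplied most of the histone signal. The summed FPKM of the 70 HIST genes was 72.2, 85.7 and 79.2 in the MA samples and 52.8, 49.0 and 63.5 in the untreated samples. The groups did not overlap, the lowest MA sample lying above the highest untreated one with or without MA PANC-1 replicate 2, and the ratio of the means was 1.43. The 16 replacement genes summed to 471, 500.1 and 556 FPKM with MA and to 565, 504 and 541 without, overlapping at a ratio of 0.949. Set against the replacement sum, the HIST sum was 15.3%, 17.1% and 14.2% in the MA samples and 9.34%, 9.71% and 11.7% in the untreated samples.

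**Figure D1:**
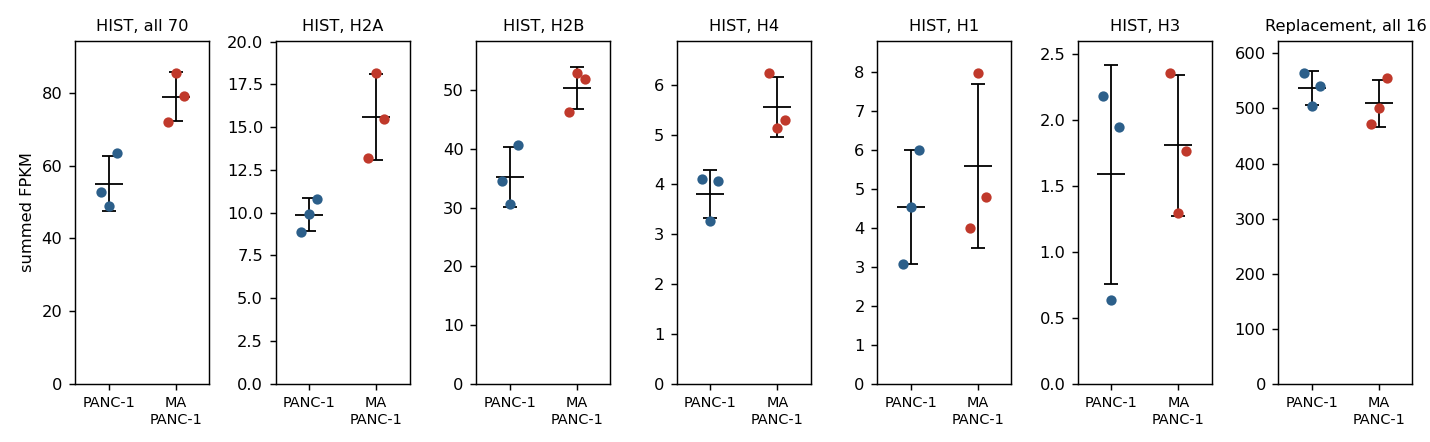
Summed FPKM (linear axes from 0) of all HIST genes, of the HIST genes of each histone type and of all replacement genes; points are samples, black bars the mean and SD of 3. The groups separate for all HIST genes, H2A, H2B and H4, and overlap for H1, H3 and the replacement genes. The separation of H2A rests on HIST2H2AA3 and HIST2H2AA4.

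HIST1H2BK, an H2B gene, made up 53.9% of the summed HIST FPKM and the 7 HIST genes at a mean of at least 1 FPKM made up 82.1%. Without HIST1H2BK the sums were 34.4, 40.1 and 35.7 against 23.6, 22.7 and 28.9, with a ratio of 1.46 and again no overlap. The groups thus stayed apart without the most abundant HIST gene.

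By histone type, the H2A genes summed to 13.2, 18.2 and 15.5 FPKM with MA and to 8.88, 9.94 and 10.8 without. The H2B genes summed to 46.4, 53.1 and 51.9 against 34.6, 30.6 and 40.6, and the H4 genes to 6.25, 5.13 and 5.29 against 4.11, 3.26 and 4.07. These 3 types did not overlap between the groups, with ratios of 1.58, 1.43 and 1.46. The H2A sum includes the pair HIST2H2AA3 and HIST2H2AA4, described below, at 9.03, 10.5 and 8.98 FPKM with MA and 4.97, 4.60 and 5.79 without. Without this pair the H2A sums overlapped, so their separation rested on the pair. The H1 sum (ratio 1.23) and the H3 sum (ratio 1.14) overlapped.

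By locus, the 55 HIST1 genes on chromosome 6 gave a ratio of 1.42 and the 11 HIST2 genes on chromosome 1 one of 1.67, both without overlap. HIST2H2AA3 and HIST2H2AA4 made up most of the HIST2 sum in every sample. Without this pair the sums of the HIST2 genes overlapped between the groups. The 3 HIST3 genes, also on chromosome 1, overlapped at 0.729, 0.467 and 0.904 FPKM with MA and 0.475, 1.27 and 1.05 without. HIST4H4 on chromosome 12 was at 0.0199, 0 and 0 FPKM with MA and 0.0398, 0.112 and 0.0205 without. All MA samples lay lower, but MA PANC-1 replicate 1 and PANC-1 replicate 3 had 4 estimated counts each. The gene stayed below the filter described above and was not tested.

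In the fit across all 17774 genes (edgeR's quasi-likelihood test), 8 of the 37 tested HIST genes were higher with MA at an unadjusted p under 0.05 and 0 were lower. Over all genes, 5.37% were higher at that level and 5.86% were lower. None of the 13 tested replacement genes passed it in either direction, and 1 of the 10 tested pseudogenes, H2AFVP1, was higher. After Benjamini-Hochberg adjustment 0 histone genes passed 0.05, against 0.0394% of all genes, and DESeq2 and limma also gave 0. The smallest adjusted p of any histone gene was 0.394 in edgeR, for HIST1H2BK, so no single gene was set apart at the level of the whole table.

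The 8 HIST calls also depended on single libraries. Leaving out MA PANC-1 replicate 1, 2 or 3 gave 5, 5 and 4 HIST genes, and leaving out PANC-1 replicate 1, 2 or 3 gave 5, 1 and 6. The count was lowest without PANC-1 replicate 2, in which HIST1H2BK, HIST1H2BJ and HIST1H4J had their lowest FPKM of all samples.

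Of the 37 tested HIST genes 27 had a fitted log2 fold change above 0, or 73.0%, against 49.8% of all genes. Their median log2 fold change was 0.55, against -0.0017 over all genes and 0.02 over the tested replacement genes. With limma on log2(FPKM + pseudocount) the HIST median was 0.30 at a pseudocount of 0.1 and 0.0936 at 1, and it was 0.35 with paralogs summed. Without MA PANC-1 replicate 2 the HIST median was 0.17, and without any other single library it lay between 0.45 and 0.65. With the FPKM groups compared directly, 9 HIST genes lay higher in all MA samples than in any untreated one and 0 lay lower, where 8.79% of all genes lay higher and 11.1% lower. For these genes the exact permutation test over 6 samples gave p = 0.1, the smallest that 3 against 3 allows.

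**Figure D2:**
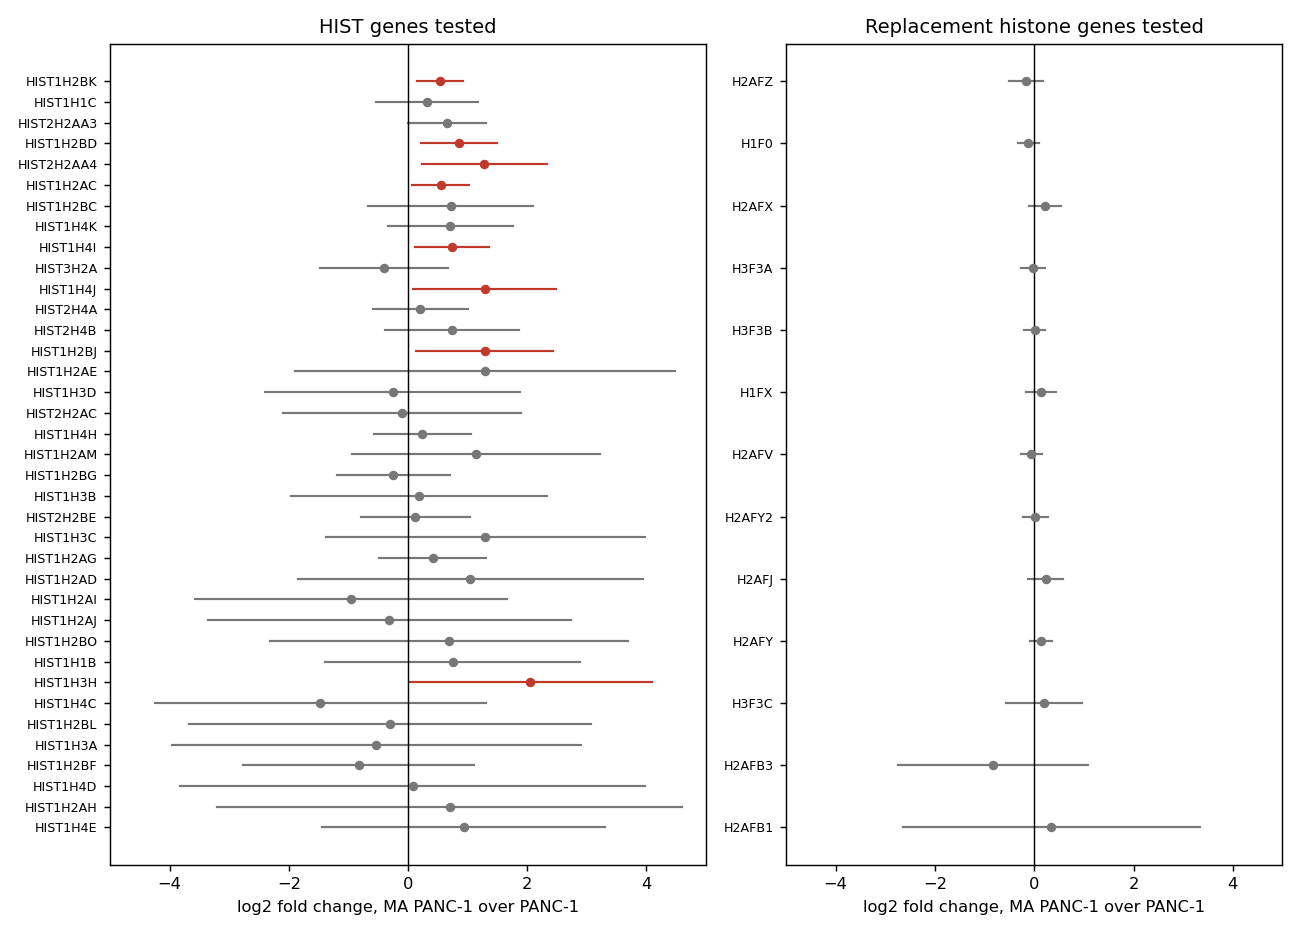
Fitted log2 fold change (MA PANC-1 over PANC-1) with its 95% interval for the 37 HIST and 13 replacement genes tested, ordered from high to low mean FPKM; red marks an unadjusted p under 0.05. The 7 most abundant HIST genes all lie above 0, while the lower ones spread to both sides with wide intervals and the abundant replacement genes lie close to 0.

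Of the abundant genes, those for the core histones H2A and H2B are given first. HIST1H2BK (chr6:27146418-27146798, minus strand), which encodes an H2B of the core, was at 37.7, 45.6 and 43.6 FPKM with MA and 29.2, 26.3 and 34.6 without. All MA samples lay above all untreated ones, and the fitted fold change was 1.45 (log2 0.54 ± 0.16 SE, unadjusted p = 0.0134, adjusted p = 0.394, edgeR). Its log2 fold change stayed between 0.44 and 0.65 when single samples were left out.

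HIST1H2BD (chr6:26158146-26171349, plus strand), another H2B gene, was at 4.999, 3.41 and 4.796 FPKM with MA and 3.28, 2.15 and 1.95 without. The groups did not overlap, though the lowest MA sample and the highest untreated one were close, and the log2 fold change was 0.86 ± 0.27 (SE, unadjusted p = 0.0147, edgeR). The gene overlaps the pseudogene LARP1P1 on its strand, with which reads may be shared.

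HIST1H2AC (chr6:26124145-26139116, plus strand), an H2A gene, was at 2.36, 2.08 and 3.08 FPKM with MA and 1.80, 1.77 and 1.68 without. MA PANC-1 replicate 3 was the highest, and the log2 fold change was 0.55 ± 0.20 (SE, unadjusted p = 0.0289, edgeR). It stayed under 0.05 in 10 of 15 alternative settings. HIST1H2BC, its neighbour on the other strand, was at 1.62, 1.57 and 1.33 FPKM with MA and 0.697, 0.313 and 1.84 without. PANC-1 replicate 3 lay above all MA samples, and the log2 fold change of 0.72 had an interval from -0.67 to 2.11 (95%, unadjusted p = 0.261, edgeR). Without that library it was 1.61 and passed 0.05.

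HIST2H2AA3 and HIST2H2AA4 are near-identical H2A genes on opposite strands of chromosome 1, and the counting can divide their reads in either way. HIST2H2AA4 was at 4.57, 5.19 and 4.44 FPKM with MA and 0.812, 2.27 and 2.89 without, a log2 fold change of 1.29 ± 0.44 (SE, unadjusted p = 0.0224, edgeR). HIST2H2AA3 was at 4.47, 5.33 and 4.54 against 4.16, 2.33 and 2.89, a log2 fold change of 0.65 ± 0.28 (SE, unadjusted p = 0.0520, edgeR). The split was uneven in PANC-1 replicate 1, where HIST2H2AA4 was at its lowest and HIST2H2AA3 at its highest untreated value.

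Added together, the pair gave 9.03, 10.5 and 8.98 FPKM with MA and 4.97, 4.60 and 5.79 without. The sum removes the question of the split, and every MA sample lay above every untreated one at a ratio of 1.86. No other HIST sum given here had a higher ratio.

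HIST1H1C, which encodes the linker histone H1.2, was the second most abundant HIST gene at 3.83, 7.26 and 4.57 FPKM with MA and 2.83, 4.42 and 5.71 without. The groups overlapped, with a log2 fold change of 0.32 and a 95% interval from -0.53 to 1.18 (unadjusted p = 0.403, edgeR). Without MA PANC-1 replicate 2, its highest sample, the value was -0.04, so its direction rested on that library.

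**Figure D3:**
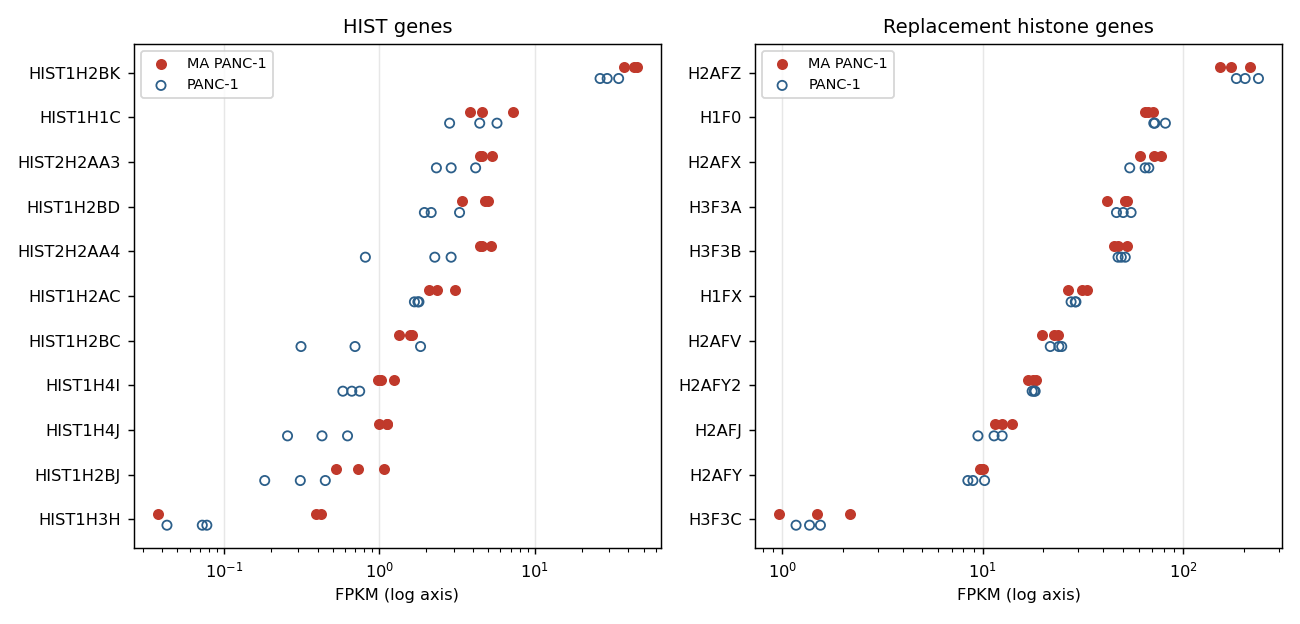
FPKM (log axis) in each sample for the HIST genes at a mean of at least 1 FPKM or with an unadjusted p under 0.05, and for the 11 replacement genes at a mean of at least 1 FPKM; filled red points are MA PANC-1, open blue ones PANC-1. HIST1H2BK lies between 26.3 and 45.6 FPKM, the other HIST genes below 8, and the replacement genes overlap between groups except H1F0.

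Among the H4 genes, which encode one and the same core protein from many copies, HIST1H4I was at 1.24, 0.980 and 1.02 FPKM with MA and 0.582, 0.664 and 0.746 without. Its groups did not overlap and the log2 fold change was 0.73 ± 0.26 (SE, unadjusted p = 0.0269, edgeR). HIST1H4J was at 1.11, 1.117 and 0.994 against 0.623, 0.256 and 0.427 FPKM, again without overlap, with a log2 fold change of 1.29 ± 0.51 (SE, unadjusted p = 0.0381, edgeR).

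HIST1H4J rested on low values, 26 to 32 estimated counts with MA and 8 to 20 without, and missed 0.05 in 8 of 14 alternative settings. HIST1H4K lay higher in all MA samples as well, at 1.28, 1.28 and 1.122 against 0.828, 0.885 and 0.579 FPKM, and did not pass (unadjusted p = 0.152, edgeR).

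Genes past a fold change of 2 with an unadjusted p under 0.05, the rule used in the study for differential expression, made up 1.92% of all genes. HIST2H2AA4, HIST1H4J, HIST1H2BJ and HIST1H3H were the 4 histone genes past it, all higher with MA. The call of HIST2H2AA4 depends on how reads were split with HIST2H2AA3, since the summed pair had a ratio of 1.86. With single samples left out, the log2 fold change ran from 0.91 to 1.64 for HIST2H2AA4 and from 0.94 to 1.63 for HIST1H2BJ. At its lowest each of these fell below a fold of 2. The lowest values of HIST1H4J and HIST1H3H were 1.026 and 1.66. HIST1H2BJ, an H2B gene of the same cluster as HIST1H2BK, was at 0.527, 1.08 and 0.724 FPKM with MA and 0.310, 0.183 and 0.448 without, a log2 fold change of 1.29 ± 0.49 (SE, unadjusted p = 0.0324, edgeR). It stayed under 0.05 in 9 of 14 alternative settings. Without MA PANC-1 replicate 2 or 3 the count of histone genes past the rule was 1, and without PANC-1 replicate 1 or 2 it was 2.

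HIST1H3H, an H3 gene, had the highest log2 fold change of the tested HIST genes, 2.06 ± 0.87 (SE, unadjusted p = 0.0491, edgeR). Its mean was 0.283 FPKM with MA and 0.0643 without, so it passed the filter of 0.1 FPKM only through the MA samples. It is still counted among the calls given above and below. Its estimated counts were 36, 4 and 34 with MA and 8, 8 and 4 without, so MA PANC-1 replicate 2 lay with the untreated samples and the groups overlapped. It missed 0.05 in 10 of 14 alternative settings.

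The other tested HIST genes lay below a mean of 1 FPKM, where the intervals were wide. Of all 30 tested HIST genes below that level 20 were above 0 and 10 below, with a median log2 fold change of 0.33. The lowest was HIST1H4C at -1.47, with 6, 0 and 1 estimated counts against 12, 4 and 7, and a 95% interval from -4.25 to 1.31. The interval includes 0 and a change in either direction.

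Of the HIST genes tested, 19 had a stem-loop in an annotated transcript and 6 of these were higher at an unadjusted p under 0.05, against 2 of the 18 without one and 5.37% of all genes. Their median log2 fold changes were 0.65 and 0.48. Of the 10 with a poly(A) signal after the stem-loop 4 were higher, with a median of 0.69, and of the other 27 also 4, with a median of 0.41. HIST1H3H, which passed the filter only through the MA samples, is 1 of the 6 with a stem-loop and 1 of the 4 with a signal after it. Of the 15 with coding length only 1 was higher. Among the 70 HIST genes the median level was 0.242 FPKM for the 16 with a signal after the stem-loop, 0.121 for the 15 with a stem-loop only, 0.113 for the 6 with no stem-loop in a model beyond the coding part and 0.0808 for the 33 with coding length only. These are descriptions of annotated models, and 4 of the 7 HIST genes at 1 FPKM or more belonged to the first of these sets.

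The replacement genes served as the counterpart with poly(A) tails. H2AFZ, which encodes H2A.Z of gene starts, was the most abundant at 153, 173 and 216 FPKM with MA and 237, 184 and 203 without. The groups overlapped, with a log2 fold change of -0.17 and a 95% interval from -0.52 to 0.18 (edgeR). H2AFV, which encodes the second H2A.Z protein, was at 22.6, 19.6 and 23.85 against 23.97, 21.7 and 24.8 FPKM, with a log2 fold change of -0.06.

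H2AFX, which encodes the H2A.X that is phosphorylated at DNA breaks, was the replacement gene with a stem-loop. It was at 60.8, 77.2 and 71.2 FPKM with MA and 64.5, 54.1 and 67.3 without, and the groups overlapped. Its log2 fold change was 0.21 with a 95% interval from -0.11 to 0.54 (unadjusted p = 0.169, edgeR).

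H3F3A and H3F3B both encode H3.3, the H3 placed outside replication. H3F3A was at 51.4, 41.8 and 52.7 FPKM with MA and 50.2, 46.4 and 54.9 without, and H3F3B at 45.2, 47.3 and 52.7 against 47.3, 49.1 and 51.4. Their log2 fold changes were -0.02 and 0.01, with 95% intervals from -0.26 to 0.22 and from -0.20 to 0.22, which exclude a change of the size fitted for HIST1H2BK. The sign of each turned when the fit or a library was changed.

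H1F0, which encodes the linker histone H1.0 of resting cells, was the only tested replacement gene whose groups did not overlap, at 71.0, 64.2 and 66.8 FPKM with MA and 72.1, 81.4 and 71.3 without. The gap was small, and the log2 fold change of -0.12 did not pass (unadjusted p = 0.232, edgeR). H1FX, which encodes H1.10, was at 26.5, 33.2 and 31.4 against 28.9, 29.2 and 27.6 FPKM with overlap.

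The macroH2A genes H2AFY and H2AFY2, whose proteins are large H2A variants of silent chromatin, had log2 fold changes of 0.14 and 0.02. H2AFY was at 10.1, 9.67 and 9.80 FPKM with MA and 10.2, 8.43 and 8.93 without, and H2AFY2 was at 17.8, 18.5 and 16.9 against 18.04, 18.3 and 17.6. H2AFJ, which encodes H2A.J, was at 11.5, 14.04 and 12.5 against 11.4, 9.46 and 12.5 FPKM. All 3 genes overlapped between the groups.

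H3F3C, which encodes an H3 known from testis, was at 1.49, 0.960 and 2.17 FPKM with MA and 1.37, 1.55 and 1.17 without. H2AFB1 and H2AFB3, short H2A variants of the germ line, had at most 20 estimated counts in a sample, and their log2 fold changes of 0.35 and -0.82 had 95% intervals from -2.65 to 3.34 and from -2.74 to 1.09. Without PANC-1 replicate 2 H2AFB3 was at -0.02, and H2AFB1 turned to -0.86 without MA PANC-1 replicate 2. H1FNT and H1FOO, linker histones of germ cells, had 0 counts in every sample.

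Histone pseudogenes were given FPKM values as well, and whether their reads came from the parent genes was not tested. The highest means were those of H3F3AP4 at 7.80 FPKM and H3F3AP6 at 3.97 FPKM, both with overlap between the groups. H2AFVP1, a copy of H2AFV, was at 3.21, 3.03 and 2.57 FPKM with MA and 2.29, 1.61 and 2.13 without, a log2 fold change of 0.59 ± 0.24 (SE, unadjusted p = 0.0447, edgeR). Among alternatives run for it after seeing the data, it stayed under 0.05 in 8 of 16, and in 1 of the 6 that left out a sample, and missed it with DESeq2 (unadjusted p = 0.0532). It overlaps FAM174B on its strand, so its reads cannot be assigned with certainty. All 34 pseudogenes summed to 18.4, 16.6 and 22.7 FPKM with MA and to 18.4, 16.5 and 16.5 without, with overlap.

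To set the levels beside the promoters of the genes, 65 HIST and 14 replacement genes were matched to RefSeq promoter windows (GRCh38.p14) from 250 bases before the start to 50 after. They were searched on both strands for the octamer ATTTGCAT, for the TATA box (TATAAA) and for the CCAAT box, each counted by itself. The 250 bases before the start are shown for HIST1H2BK, the most abundant HIST gene, and for H3F3B, the only replacement gene with an octamer, with matches in capitals.
HIST1H2BK (chr6:27146859-27147108, minus strand): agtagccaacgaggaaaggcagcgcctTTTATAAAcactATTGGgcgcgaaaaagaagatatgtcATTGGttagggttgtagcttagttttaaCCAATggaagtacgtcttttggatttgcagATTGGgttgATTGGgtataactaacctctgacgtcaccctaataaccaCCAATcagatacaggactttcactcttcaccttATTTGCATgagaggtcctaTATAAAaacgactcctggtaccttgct
H3F3B (chr17:75779780-75780029, minus strand): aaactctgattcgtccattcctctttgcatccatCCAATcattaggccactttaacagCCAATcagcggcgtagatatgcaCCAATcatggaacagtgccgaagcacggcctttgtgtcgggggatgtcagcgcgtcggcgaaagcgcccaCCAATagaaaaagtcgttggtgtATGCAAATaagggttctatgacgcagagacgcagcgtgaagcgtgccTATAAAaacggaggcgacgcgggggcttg

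In HIST1H2BK the octamer lay 46 to 39 bases before the start and a TATAAA 27 to 22 bases before it, while a second TATAAA further up overlapped its own reverse match. In H3F3B the octamer lay on the other strand, 76 to 69 bases before the start. The octamer was present in 14 of 18 H2B and 11 of 16 H2A promoters of HIST genes, in 1 of 12 H3 promoters and in 0 of 6 H1 and 0 of 13 H4 promoters, against 1.77% of all 35116 promoters. CCAAT was in all 52 matched H1, H2A, H2B and H3 promoters and in 3 of 13 H4 promoters, against 34.6% of all promoters. These promoters are not all separate stretches of DNA. Neighbouring H2A and H2B genes on opposite strands can share most of a window, as HIST1H2AC and HIST1H2BC do, so a match can be counted for both. The only H3 promoter with an octamer, that of HIST1H3D, is the same window as that of HIST1H2AD.

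TATAAA was in 66.2% of the HIST promoters and in 28.6% of the replacement ones, against 11.5% of all promoters. Of the 8 HIST genes higher at an unadjusted p under 0.05, 7 had a TATAAA, 7 a CCAAT and 3 an octamer, so the genes called did not share 1 set of letters. These 8 include HIST1H3H, which passed the filter only through the MA samples. A match describes letters and not a binding site.

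**Figure D4:**
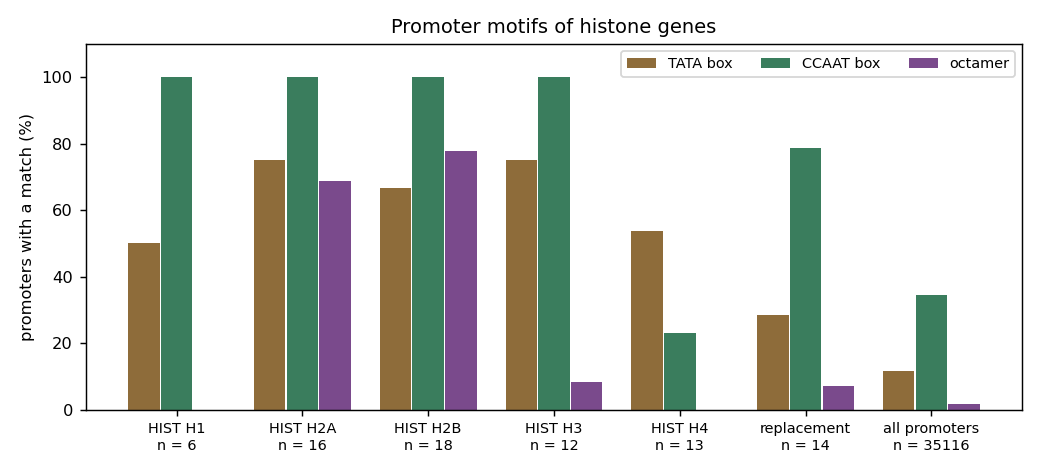
Percent of promoters with at least 1 match on either strand (linear axis), for the HIST genes by histone type, the replacement genes and all RefSeq promoters. The octamer stands at 77.8% for H2B and 68.8% for H2A and at 0 for H1 and H4. Windows of neighbouring genes can overlap, so a match can be counted for more than 1 gene.

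Factors that read and process histone genes were examined in the same fit. Of 32 tested, 2 were higher and 4 lower at an unadjusted p under 0.05, with a median log2 fold change of -0.01. Over all genes 5.37% were higher and 5.86% lower. By FPKM groups, 3 factors lay higher and 7 lower in all MA samples than in any untreated one. Of all genes 8.79% lay higher in this way and 11.1% lower. SLBP, which binds the stem-loop, was at 43.3, 39.7 and 48.9 FPKM with MA and 45.8, 46.4 and 45.1 without, a log2 fold change of -0.02. NPAT, the coactivator of HIST genes, was at 1.55, 0.775 and 1.39 against 1.71, 1.63 and 2.16 FPKM, with no overlap and a log2 fold change of -0.54 ± 0.25 (SE, unadjusted p = 0.0694, edgeR). Its lowest sample was MA PANC-1 replicate 2, without which the log2 fold change was -0.32, and without the same library SLBP was at 0.0075.

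The 4 lower factors were CASP8AP2, a partner of NPAT (log2 fold change -0.85), CPSF2, a subunit of the cleavage complex (-0.33), TUT7, which adds uridines to histone mRNA (-0.68), and POU2F1, the factor known to bind the octamer (-0.53). The 2 higher ones were HINFP, an activator of H4 genes, at 0.45, and E2F1, an activator of S phase genes, at 0.30. Each log2 fold change came from edgeR, and none passed after adjustment. The 4 lower factors all had their lowest FPKM in MA PANC-1 replicate 2, and the 2 higher ones their highest. In fits chosen after seeing the data, which left that library out, the values were -0.57 for CASP8AP2, -0.26 for CPSF2, -0.51 for TUT7, -0.47 for POU2F1, 0.30 for HINFP and 0.18 for E2F1, and TUT7, HINFP and E2F1 no longer passed an unadjusted 0.05 (edgeR). With each of the 6 samples left out in turn, CASP8AP2 passed in 4 fits, CPSF2 and POU2F1 in 5, TUT7 in 3, HINFP in 2 and E2F1 in 1.

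Among 29 tested histone chaperones 0 were higher and 1 was lower, MMS22L, with a log2 fold change of -0.42, and the median was -0.06. Of 25 S phase genes 3 were higher and 2 lower, with a median of 0.07. The higher ones include E2F1, already counted among the factors above, and CCNE1, CCNE2 and MCM2 also stand in more than 1 list. These counts stand beside the same 5.37% and 5.86% of all genes. By FPKM groups, 2 chaperones lay higher and 7 lower in all MA samples than in any untreated one. Of the S phase genes 3 lay higher and 3 lower, where 8.79% of all genes lay higher and 11.1% lower. CDC6, which licenses replication origins, had a log2 fold change of 0.31, and POLA1, the catalytic subunit of polymerase alpha, one of -0.48. RRM2, a subunit of ribonucleotide reductase, was at 52.4, 50.7 and 27.7 FPKM with MA and 28.1, 27.4 and 27.3 without, so MA PANC-1 replicate 3 lay with the untreated samples. MCM4, a subunit of the replicative helicase, had a log2 fold change of -0.19. MMS22L, POLA1 and MCM4 were also lowest in MA PANC-1 replicate 2, and without it their values were -0.31, -0.48 and -0.16. CDC6 was at 0.31 and RRM2 at 0.54 without it, and RRM2 no longer passed (unadjusted p = 0.0814, edgeR). With each sample left out in turn, POLA1 passed an unadjusted 0.05 in 6 of 6 fits, MMS22L in 3, CDC6 and RRM2 in 2 and MCM4 in 1. CENPA, the centromeric H3 outside the name rule, was at 9.70, 7.70 and 11.2 against 9.14, 7.64 and 8.68 FPKM.

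RNAs that mostly lack a poly(A) tail were followed as a gauge of poly(A) selection. The 16 listed summed to 9.57, 10.5 and 13.9 FPKM with MA and to 21.9, 20.5 and 17.7 without, each MA sample lying below each untreated one. In a check chosen after seeing the data, which left out each gene in turn, the groups overlapped without MALAT1, at 7.16, 8.63 and 9.07 against 7.87, 14.2 and 12.6, and without RN7SL1, at 6.81, 6.67 and 9.89 against 17.5, 13.4 and 9.64. Of the 9 tested 0 were higher and 3 lower at an unadjusted p under 0.05, against 5.86% of all genes lower, namely MALAT1, NEAT1, whose short form does carry a poly(A) tail, and RN7SL1. The list was not lower throughout, since 4 of the 9 had a log2 fold change above 0 and 5 below. The highest was 4.40 and did not pass. By FPKM groups 1 lay higher and 3 lower in all MA samples, where 8.79% of all genes lay higher and 11.1% lower. With each of the 6 samples left out in turn, NEAT1 passed in 6 fits, MALAT1 in 4 and RN7SL1 in 2. MALAT1, a nuclear noncoding RNA, had the highest mean over the 6 samples, though RN7SL1 lay above it in 4 of them. It was at 2.41, 1.88 and 4.85 FPKM against 14.001, 6.38 and 5.15, a log2 fold change of -1.46 ± 0.46 (SE, unadjusted p = 0.0153, edgeR), and was past the fold rule. Without PANC-1 replicate 1, its highest sample, it was -0.90 and no longer past a fold of 2. The part of poly(A) selection in the HIST values was not tested.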

How the data were processed

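PANC-1 cells with and without MA were compared in 3 samples each. Per the submitters' processing notes, the authors used cutadapt 1.9, HISAT2 2.0.4 and StringTie 1.3.4d, and named edgeR and DESeq2. The deposited FPKM values and the deposited estimated counts (whole numbers as deposited) were used. The genome build is not given in the sources used here, and the positions of 112 of 121 members were those of GENCODE 29 (GRCh38). Genes averaging 0.1 FPKM or more were fitted with edgeR 4.0.16 (TMM, quasi-likelihood, Benjamini-Hochberg over 17774 genes), tested on simulated data. DESeq2 1.42.0 and limma 3.58.1 served as alternatives. An FPKM of 0.0001 without reads counted as 0 in sums. Replacement genes at 0.1 FPKM, HIST genes at 1 FPKM, members past a fold of 2 or 0.5 with p under 0.05, SLBP, NPAT and list genes with the smallest p were named. HIST1H4C, HIST1H4I, HIST1H4K and H2AFVP1 lie outside this rule and were chosen after their values were seen. Members and lists were chosen with earlier results of these data known. Near-identical copies can exchange reads, and sums over them carry no test. Not every listed marker of other cells is reported here.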

Additional observations from a re-analysis of the deposited data

How the results depend on the processing

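No alternative gave an adjusted p under 0.05 for a histone gene, and 0 were lower at an unadjusted p under 0.05 except 1 when single samples were left out (0 to 1). HIST genes higher at that level numbered 4 at a mean of 1 FPKM, which leaves fewer genes tested, and 1 to 6 with a sample left out. All histone genes higher numbered 5 and 2 to 6. Histone genes past the fold rule numbered 2 without a filter, 1 at a mean of 1 FPKM, 1 with limma on log2(FPKM + 1) and 1 to 4 with a sample left out. All genes past it numbered 569, 93, 44 and 326 to 534. The median HIST log2 fold change was 0.30 and 0.0936 with limma at a pseudocount of 0.1 and 1, where the pseudocount shrinks low genes, 0.35 with paralogs summed, and 0.17 to 0.65 with a sample left out. Same-numbered samples correlated at 0.0294, 0.0502 and 0.0724, each highest with its own number, which does not show pairing. With the replicate number as a block, 3 HIST genes, and 3 histone genes in all, were higher, 1 was past the fold rule and the HIST median was 0.46. Signs turned for 6 of the 23 named histone genes followed across the alternatives. H2AFY2 was -0.0221 and -0.0210 with limma at the 2 pseudocounts and -0.0036 at 1 FPKM, and H3F3B was -0.0279 and -0.0274 with limma, -0.0101 at 1 FPKM and -0.0020 with upper quartile scaling. With single samples left out, H2AFB1 ran from -0.86 to 0.96, H2AFY2 from -0.0557 to 0.0717, H3F3A from -0.0798 to 0.0406, H3F3B from -0.0318 to 0.0699, H3F3C from -0.11 to 0.42 and HIST1H1C from -0.0429 to 0.57. The cause was not tested where none is named.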
